A study of Bos grunniens and Bos grunniens x Bos taurus with 6 samples.

Results

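Sertoli cells are the somatic nurse cells of the seminiferous tubule. The cells described here came from the testes of yaks (Bos grunniens) of 6 months, the prepubertal stage. They were chosen by measured values: a barcode had to hold at least 300 genes, at most 20% mitochondrial UMIs (unique molecular identifiers, each standing for 1 captured RNA molecule), at least 2 UMIs of INHA, at least 3 UMIs of INHA, FSHR, SOX9 and CITED1 in sum, and at most 1 UMI in sum of DCN, COL1A2, PECAM1, CDH5, PTPRC, CD3D and UCHL1, which mark stroma, endothelium, leukocytes and spermatogonia. The rule selected 4326 of the 14000 barcodes that passed the gene and mitochondrial limits at 6 months, out of 31071 in the whole series. In replicate 1, 2343 of 7989 barcodes were members, or 29.3% (95% exact binomial interval 28.3–30.3%), and in replicate 2, 1983 of 6011, or 33.0% (31.8–34.2%). The intervals cover counting error only.

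Before puberty Sertoli cells multiply under follicle-stimulating hormone, which acts through its receptor FSHR, and they secrete inhibin, whose alpha subunit is encoded by INHA. SOX9 is the transcription factor that sets and keeps Sertoli identity, and CITED1 is a transcriptional coregulator. At puberty the cells stop dividing, close the blood-testis barrier and begin to support meiosis with lactate, iron, retinoids and protease inhibitors.

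The series holds droplet single-cell RNA libraries (10x Genomics) of whole testis: 2 of prepubertal yaks of 6 months (replicates 1 and 2), 2 of adolescent yaks of 18 months (replicates 3 and 4), 1 of a yak of 4 years and 1 of a cattle-yak, the hybrid of cattle and yak. All tissue had been frozen, was thawed, and was digested with collagenase, hyaluronidase and trypsin. No genotype, strain or treatment was given, and a "Germ cell" tag stood on every library beside the testis tag. Whether replicates came from different animals is not said in the labels, and the p-values below reflect variation among the libraries alone, which may be technical. The same rule selected 95 cells (2.24%) and 669 cells (15.9%) in the 18-month libraries, and 18 and 64 in the 4-year and cattle-yak libraries, which were single libraries and entered no comparison. The 2 libraries of 6 months held 19254307 and 15565708 UMIs, and the members 7033474 and 5435032 of these. Between 5 and 16 barcodes were shared by any pair of libraries, and 1 was a Sertoli barcode in both.

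The member cells were compared with stroma cells of the same libraries, chosen by at least 3 UMIs of DCN and COL1A2 and at most 1 of the Sertoli markers (1693 and 1000 cells at 6 months, 598 and 308 at 18 months). Since the rules separated the classes on measured genes, the differences at 6 months are descriptions without a test. Levels are CPM, a gene's UMIs in the summed cells of a library scaled to the same total everywhere, and they compare a gene between cells rather than genes with one another. Ratios have 10 CPM added to both sides.

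INHA, which the rule required, had a median of 14 UMIs per cell in replicate 1 and 22 in replicate 2, or 5955 and 10977 CPM. FSHR was seen in 9.60% of the members of replicate 1 and 11.5% of those of replicate 2, against 0.177% and 0.100% of stroma cells. FSHR counted toward the member rule, and stroma cells could hold at most 1 UMI of the 4 markers, so this contrast was partly set by the rules. SOX9 was seen in 18.3% and 10.7% of members, and CITED1 in 16.0% and 11.1%. At least 1 of these 3 genes was present in 831 members of replicate 1 (35.5%) and 558 of replicate 2 (28.1%), so most members were chosen on INHA alone. Members with INHA alone had 20412 and 19045 CPM of TIMP2, a secreted metalloprotease inhibitor that the rule did not use, against 23913 and 22823 CPM in members with another marker. The 88 and 77 members whose 4 markers summed to exactly 3 held 9811 and 2474 CPM of TIMP2 with a median mitochondrial share of 2.30% and 7.67%. The 167 and 202 barcodes just outside, with INHA at 2 and no other marker, held 5480 and 1862 CPM.

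The label was checked on genes outside the rule, among 36 further Sertoli genes. Of these, 16 had at least 5 CPM in Sertoli or stroma cells. TIMP2, CST3, SERPINA5, TF and GATA6 were at least 2-fold over stroma in both libraries, and WT1, NR0B1, LHX9, EMX2 and TIMP1 were among those at or below a ratio of 0.5. CST3, the cysteine protease inhibitor cystatin C, had 8383 and 7860 CPM against 3893 and 3541 in stroma. WT1, a transcription factor of the Sertoli lineage, went against the label with 13.9 and 10.3 CPM against 55.2 and 30.7 in stroma. GATA4, another gonadal transcription factor, had 41.7 and 39.6 CPM against 39.0 and 23.4. DMRT1, which keeps Sertoli cells male, was sparse at 5.97 and 8.65 CPM against 0.336 and 1.38. DHH, the hedgehog ligand made by Sertoli cells, had 18 and 10 UMIs in the members and 0 in stroma. SOX8 had 0 UMIs, which allows up to 0.427 and 0.552 CPM. AMH, CLU, CLDN11 and KRT8 were not matched to a symbol and were not analysed here. So INHA, FSHR, SOX9 and CITED1 carried the name by rule, TIMP2, CST3 and SERPINA5 were high beside them, and WT1 and KRT18 (4.41 and 2.39 CPM against 36.3 and 13.3) were below stroma.

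Ribosomal protein genes and the secreted proteins TIMP2 and APOA1 were among the most abundant transcripts of the members. Among the 25 genes of highest CPM, between 9792 and 24045 CPM on average, 12 had a symbol and 7 of these were ribosomal, while 13 had none, among them the second highest (ENSBGRG00000010006, 26032 and 21480 CPM against 55649 and 36350 in stroma). RPLP1 had 25473 and 22616 CPM. TIMP2 (ENSBGRG00000019564) had 21905 CPM in replicate 1 and 20418 in replicate 2, with a median of 50 and 42 UMIs per cell. APOA1 (ENSBGRG00000003668), the main protein of high-density lipoprotein, had 12594 and 11587 CPM, a median of 28 and 23 UMIs per cell. LMLN, B3GALT4 and COLEC11 also stood among the 25, yet in the RefSeq table each neighbours a ribosomal protein gene (RPL35A, RPS18 and RPS7) that was not matched to a symbol here, so their counts are uncertain.

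Of 7646 genes with at least 5 CPM in either class, 46 (0.602%) were at least 4-fold over stroma in both libraries, 186 (2.43%) at least 2-fold, and 1381 (18.1%) at or below a ratio of 0.5. The median ratio, taken as the lower of both libraries, was 0.620. The water channel gene AQP8 (ENSBGRG00000019324) had 488 and 533 CPM in Sertoli cells against 23.2 and 17.9 in stroma, ratios of 15.0 and 19.5. PCSK1N, an inhibitor of prohormone convertase, had 202 and 350 CPM against 4.37 and 7.34. TNNI3, known as the cardiac troponin I, had 643 and 814 CPM against 37.0 and 28.9. The small heat shock protein gene CRYAB had 1476 and 1491 CPM against 102 and 84.4. The secretory granule gene CHGA had 779 and 444 CPM against 72.7 and 35.3, and the trefoil factor TFF2 had 314 and 270.1 against 18.8 and 6.88. In each of these genes both libraries lay above stroma, as the rule for naming them required.

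**Figure D1:**
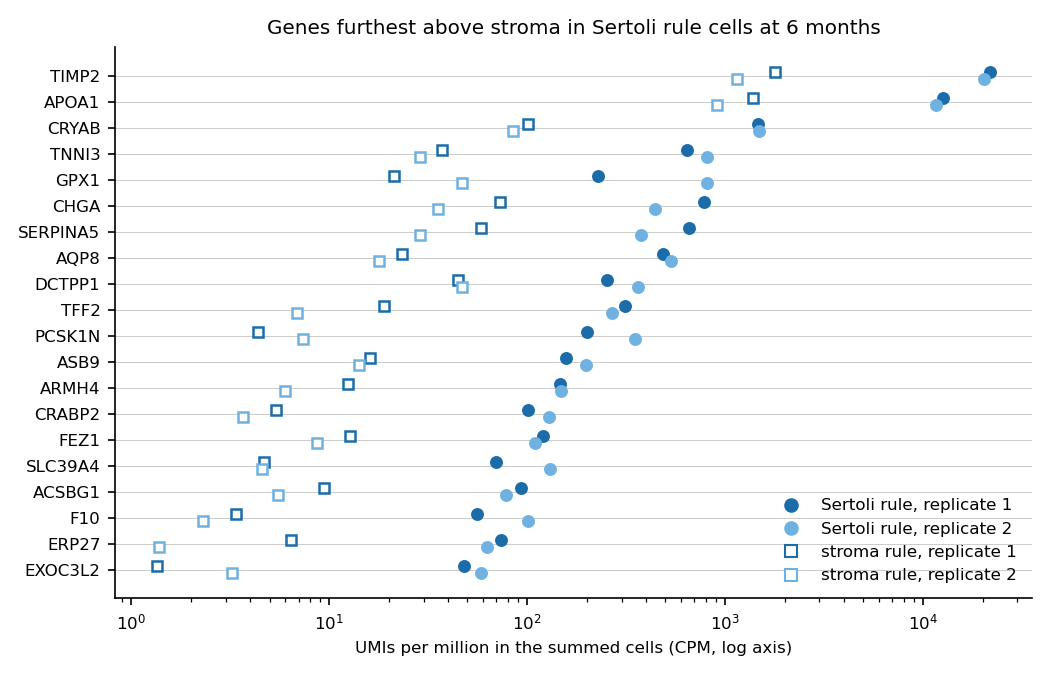
CPM (log axis) of the 20 genes with a symbol, outside the rule, whose lower ratio to stroma was highest at 6 months, as filled circles for Sertoli cells and open squares for stroma cells of replicates 1 (dark) and 2 (light). TIMP2 lies at 21905 and 20418 against 1794 and 1148 CPM, and AQP8 at 488 and 533 against 23.2 and 17.9.

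The most abundant of these genes were also seen in stroma cells, and whether as free RNA was not tested. TIMP2 was seen in 94.0% and 88.8% of stroma cells at 6 months (median 3 and 2 UMIs, at median depths of 1628 and 2053 UMIs) and in 99.9% and 99.5% of members (depths 2579 and 2245). APOA1 was seen in 87.5% and 81.8% of stroma cells, with a median of 2 UMIs in both libraries. CRYAB was seen in 15.7% and 14.7% of stroma cells against 88.9% and 85.1% of members. Against all other kept barcodes in place of stroma, no gene reached 4-fold in both libraries. TIMP2 was then 2.74- and 6.50-fold higher, and AQP8 3.11- and 6.37-fold. INHA, which the rule required, was 3.49- and 8.13-fold higher. That reference held 233 and 143 barcodes that met the Sertoli marker limits but had 2 UMIs of the excluded genes. They had 21559 and 16519 CPM of TIMP2.

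The gene lists below were read against the same background (2.43% at least 2-fold, 18.1% at or below 0.5). Among hormone genes, 16 of 30 for inhibin, activin, AMH and FSH signalling were measured. INHA and FSHR, both of the rule, were at least 2-fold higher, and INHBA, TGFBR3 and FSTL1 were at or below 0.5. INHBA, the activin beta-A subunit that pairs with INHA to make inhibin A, had 113 and 100.3 CPM against 607 and 399 in stroma. TGFBR3, the betaglycan co-receptor of inhibin, had 5.40 and 2.39 CPM against 138 and 80.3. FSTL3, a binder of activin, had 8.39 and 8.65 CPM against 1.01 and 0.459. The cyclic AMP-dependent kinase subunit PRKAR2B had 60.7 and 70.7 CPM against 38.4 and 26.1.

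Of 36 proteases and inhibitors, 23 were measured, 5 were at least 2-fold higher and 7 at or below 0.5. The 5 were the inhibitors TIMP2, CST3, SERPINA5, SLPI and SPINT2. SERPINA5, the protein C inhibitor, had 659 and 378 CPM against 58.2 and 28.9. SLPI, a secreted leukocyte protease inhibitor, had 50.9 and 123 CPM against 3.36 and 5.05. The metalloproteases MMP2 (0.427 and 0.552 CPM) and ADAMTS1 (6.97 and 9.20) were among the lower genes, against 20.2 and 14.7, and 107 and 73.4, in stroma.

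Of 29 retinoid genes, 10 were measured. CRABP2, which carries retinoic acid in the cell, had 102 and 129 CPM against 5.38 and 3.67, and STRA6, the receptor for retinol-binding protein, 63.6 and 33.5 against 7.07 and 2.29. ALDH1A2, which makes retinoic acid, had 2.56 and 2.02 CPM against 62.6 and 35.3. Of 35 glutathione and detoxification genes, 19 were measured and GSTM3, GPX1, PRDX6 and SOD3 were at least 2-fold higher. GSTM3, a glutathione transferase, had 3388 and 4170 CPM against 896 and 743. GPX1, a selenoprotein peroxidase, had 228 and 811 CPM, a spread between libraries of over 3-fold, against 21.2 and 46.8.

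Of 38 secretory pathway genes all 29 in the files were measured, and ERP27 and HSP90B1 were at least 2-fold higher with none at or below 0.5. Of 31 junction genes, 12 were measured. The desmosomal cadherin DSG2 had 27.0 and 29.6 CPM against 1.35 and 0.917, and was the one at least 2-fold higher. N-cadherin, CDH2, had 16.2 and 9.57 CPM, with 2 and 0 UMIs in stroma. Of 25 basement membrane genes, 18 were measured. The collagen chain COL4A3 was at least 2-fold higher, at 23.2 and 17.5 CPM against 3.70 and 1.83, while the laminin and nidogen genes LAMA2, LAMA4, LAMB1, LAMC3 and NID1 were at or below 0.5. SPARC, a matrix glycoprotein, was the highest of the list at 3321 and 1547 CPM. Of 32 niche signals to germ cells, 12 were measured, 7 were at or below 0.5 and 0 at least 2-fold higher, with WNT6 highest at 155 and 153 CPM against 46.4 and 72.9.

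Cycling was rare. A cell was counted as cycling when, thinned to 1000 UMIs, it held at least 2 of 8 proliferation genes. Counted so, 16 of 2284 members of replicate 1 (0.701%, 0.401–1.14%) and 25 of 1927 of replicate 2 (1.30%, 0.841–1.91%) were cycling. Without thinning the shares were 1.11% and 3.43%, and with at least 1 gene in thinned cells they were 1.58% and 4.88%. In stroma cells the shares by at least 2 genes were 0.943% and 0.645% after thinning. These lay within the members' interval in replicate 1 and below it in replicate 2. At 18 months 1 of 81 and 0 of 650 Sertoli cells were cycling, and a count of 0 of 650 allows up to 0.462%, taking 3 cells as the limit of a count of 0 (the exact binomial interval ends at 0.566%). UBE2C, a mitotic ubiquitin enzyme, had 3.98 and 37.7 CPM in the members, so the libraries differed.

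The members carried very few mitochondrial UMIs, and whether these barcodes hold whole cells was not tested. The median share was 0.275% in replicate 1 and 0.335% in replicate 2, against 5.48% and 5.62% in stroma cells of the same libraries. Below 1% lay 1861 members of replicate 1 (79.4%) and 1547 of replicate 2 (78.0%), but only 2 of 1693 and 1 of 1000 stroma cells. At 18 months the Sertoli cells had a median of 14.6% and 9.72%, near the 13.8% and 11.3% of stroma. Their 95th percentiles, 19.5% and 18.2%, lay close to the limit of 20%, so these medians are of a cut range. The gene and mitochondrial limits together kept 4245 of 7373 and 4211 of 6181 barcodes at 18 months. At 6 months they kept 7989 of 8946 and 6011 of 6776. The 6-month members also used fewer genes at equal depth. Thinned to 1000 UMIs, they held a median of 294 and 324 genes, against 428 and 421 in stroma cells, and against 431 and 406 in Sertoli cells of 18 months. The 35 ribosomal protein genes with a symbol took 22.3% and 21.8% of the members' UMIs and 15.1% and 16.7% of those of stroma. Of 39 nuclear genes of electron transport 14 were measured, and 0 differed by 2-fold in both libraries. Their median ratio to stroma, taken as the lower of both libraries, was 0.997, against 0.620 over all genes.

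**Figure D2:**
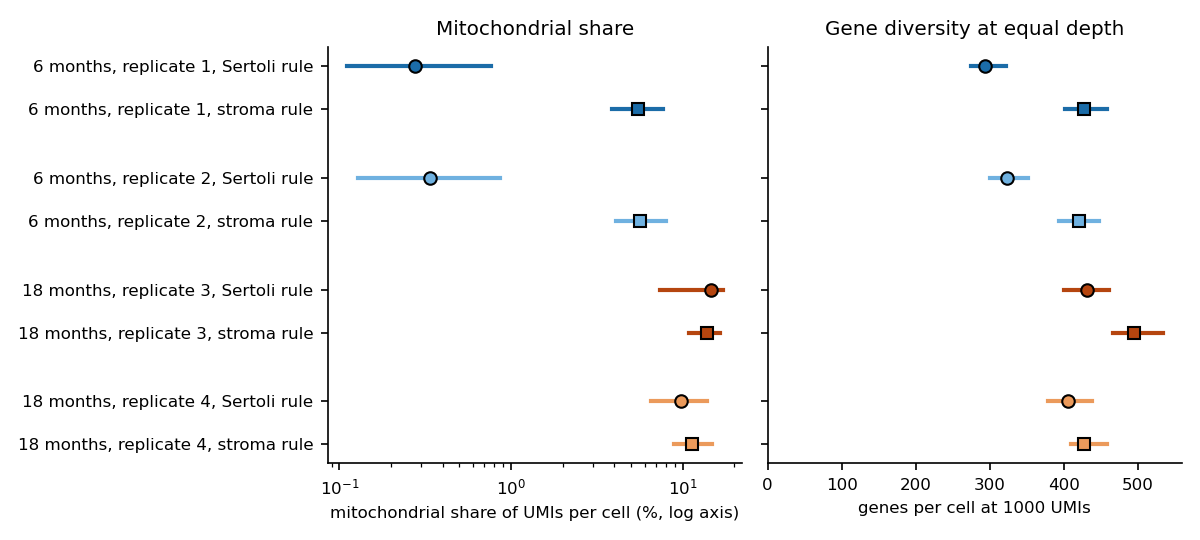
Mitochondrial share of UMIs per cell (left, log axis) and genes per cell after thinning to 1000 UMIs (right), with medians as symbols and the middle quartiles as bars, for Sertoli cells (circles) and stroma cells (squares) of each library. Only the Sertoli cells of 6 months have medians below 1% mitochondrial share, at 0.275% and 0.335%, and they have the lowest median gene numbers, 294 and 324.

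The members were therefore also described by mitochondrial share, which is a range of a score and not a cell type. There were 250 members of replicate 1 and 246 of replicate 2 at 3% or more, and 232 and 190 between 1% and 3%. Nuclear CPM of the cells at 3% or more was set against that of cells below 1%. Of 6945 nuclear genes, 710 (10.2%) were at least 2-fold higher in both libraries in the cells of more mitochondrial RNA, and 0 (0%) were at least 2-fold lower. The immediate early and heat shock genes stood out. Of 23 in the list of dissociation and stress response, 17 were measured and 14 were at least 2-fold higher, with a median of 3.84-fold against 1.22-fold over all genes. Summed, the list took 1545 CPM below 1% and 11376 CPM at 3% or more in replicate 1, and 1940 and 9247 CPM in replicate 2.

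JUN, a subunit of the AP-1 transcription factor, had 375 CPM below 1% and 3850 at 3% or more in replicate 1, and 353 and 3112 in replicate 2. FOSB, another AP-1 subunit, had 35.1 and 538 CPM in replicate 1, and 24.3 and 313 in replicate 2. KLF6, an early zinc finger factor, had 6.73 and 191 CPM, and 9.96 and 295. TIMP2 was at 22265 and 23256 CPM in replicate 1 and 21482 and 17152 in replicate 2, and AQP8 at 501 and 490, and 568 and 467. JUN, FOSB and KLF6 were named for their large rise between these ranges, so that TIMP2 and AQP8 differed less was set by that choice. SOX9, a gene of the rule, did not stay level: it had 63.8 and 604 CPM in replicate 1 and 42.3 and 187 in replicate 2.

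**Figure D3:**
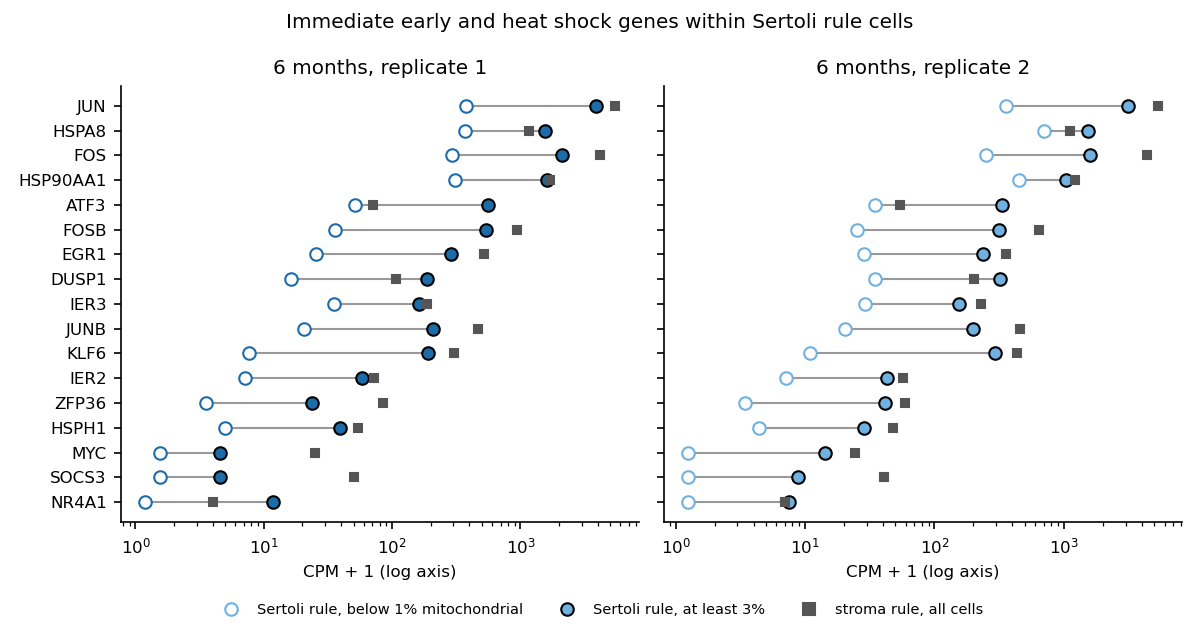
CPM + 1 (log axis) of 17 immediate early and heat shock genes in Sertoli cells below 1% mitochondrial share (open circles) and at 3% or more (filled circles), per nuclear UMIs, and in all stroma cells (squares), for both 6-month libraries. JUN lies at 375 and 3850 CPM in replicate 1, and the filled circles lie right of the open ones for all 17 genes.

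Markers of other cell types moved with the mitochondrial share. Summed stroma markers were at 14.4 CPM below 1% and 197 at 3% or more in replicate 1, and at 8.0 and 160 in replicate 2, with 4 of 6 at least 2-fold higher in both. In stroma cells they were at 3793 and 3277 CPM. Lymphocyte markers were at 1.5 and 25 CPM, and 6.3 and 313, and macrophage markers at 2.7 and 104 CPM, and 15.8 and 143. Mural markers were at 14.5 and 90.6 CPM, and 26.5 and 216. CCL5, a chemokine of cytotoxic lymphocytes, had 2.91 and 105 CPM, and 20.7 and 463. Scrublet, a doublet caller used by rank, marked 0.752% and 0.129% of the members below 1%, 40.5% and 12.6% of those between 1% and 3%, and 25.2% and 26.0% of those at 3% or more. With the cells it ranked highest left out, 683 genes were at least 2-fold higher. Endothelial markers were at 5.3 and 10.7 CPM, and 5.3 and 51.3, and germ cell markers at 72 and 87 CPM, and 71.2 and 59.2. The part of free RNA in these values was not tested.

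The 6-month libraries resembled each other. Over 4410 genes with at least 5 CPM, log2 CPM correlated at r = 0.968 across genes, which are not independent replicates, and 309 genes differed by 2-fold or more. The antigen presentation chaperone CD74 had 24.0 and 132 CPM, and ARHGAP36, a regulator of hedgehog signalling, 131 and 28.9.

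The change with age was tested on summed UMIs of the members and of Sertoli cells of 18 months chosen by the same rule, 2 libraries against 2, with edgeR's quasi-likelihood test and Benjamini-Hochberg adjusted p over all 8172 genes fitted. Of these, 212 (2.59%) were higher at 18 months and 107 (1.31%) lower. Fold changes are log2 of 18 over 6 months on the TMM scale, which lies 0.91 below the scale of library totals. By totals, 1940 genes were higher and 55 lower, so the split between directions depends on the scaling, and a gene's change is relative to that shift. Mitochondrial share moved with age in these cells, and the gene counts are therefore followed by those among cells at 3% mitochondrial UMIs or more (250, 246, 85 and 597 cells), an alternative chosen after seeing the data. There, 14 genes were higher and 61 lower of 4777. The 6-month cells of this run held more stroma, lymphocyte, macrophage and mural markers than members below 1%. Scrublet's ranking marked 25.2% and 26.0% of them, against 0.752% and 0.129% below 1%. Among the lower genes were 2 of 4 stroma, 2 of 3 macrophage and 1 of 1 lymphocyte markers. A call in this run can therefore also reflect other cells. With all cells, leaving out replicate 2 gave 128 calls in place of 319, leaving out replicate 3 gave 112, and leaving out replicate 4 gave 499. The Sertoli cells of 18 months were deeper, at medians of 4638 and 4750 UMIs against 2579 and 2245, and of the 95 cells of replicate 3 Scrublet's ranking would remove 20. Their mural markers summed to 311 and 92.7 CPM against 47.6 and 54.1, and their germ cell markers to 160 and 266 against 72.4 and 67. There were 324 calls with Leydig and mural marker cells left out, 369 among cells of 1500 to 6000 UMIs, and 469 with doublets removed by rank. The part of the germ cell markers in the calls was not tested.

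Of the 37 mitochondrial features, 16 were fitted and 13 were higher at 18 months, with a median of 2.54. COX1, a subunit of cytochrome c oxidase, had 755 and 1225 CPM at 6 months and 10722 and 9334 at 18 months. ND2 had 196 and 470 CPM at 6 months, and 9412 and 3555 at 18 months. The ages did not overlap for either gene. Among cells at 3% or more, a choice made on mitochondrial UMIs themselves, none of the 13 passed, with COX1 at 0.75 (edgeR adjusted p = 0.517) and ND2 at 1.66 (edgeR adjusted p = 0.187). Of 33 ribosomal protein genes fitted, 0 passed in either direction, with a median of -1.47, or -0.56 by library totals.

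Among nuclear genes, SLC7A3, a transporter of cationic amino acids, was at 1.56 and 0.184 CPM at 6 months and 53.3 and 91.2 at 18 months, higher by 5.38 ± 0.73 (SE, edgeR adjusted p = 0.0254). In the cells at 3% or more it was higher by 5.18 (edgeR adjusted p = 0.0175). NR4A1, an orphan nuclear receptor and early gene, was at 1.42 and 1.84 CPM, and 60.2 and 37.1, higher by 3.93 ± 0.48 (edgeR adjusted p = 0.0254), or 2.37 among cells at 3% or more (edgeR adjusted p = 0.0445). ID4, an inhibitor of DNA binding that also marks spermatogonial stem cells, was at 10.8 and 8.10 CPM, and 99.7 and 179, higher by 3.02 ± 0.51 (edgeR adjusted p = 0.0323), with 2.01 (edgeR adjusted p = 0.0865) among cells at 3% or more. The cell adhesion gene EMB was at 0.142 and 1.66 CPM, and 32.7 in both older libraries. The other genes named by the rule for higher genes were KLHL15, OSBPL10, BMP2K, RGL1, KIF21A, ADAMTS1, JMJD1C and AKAP12, by 2.49 to 3.64. Of these 8, only OSBPL10 passed among cells at 3% or more (2.53, edgeR adjusted p = 0.0403). When a replicate is left out, 1 age has a single library, which is assumed to vary like the other age. SLC7A3, NR4A1, KLHL15 and OSBPL10 passed whichever replicate was left out. ID4 did not pass without replicate 2 (edgeR adjusted p = 0.0970), nor did EMB without replicate 4. BMP2K lost the call without replicate 2, RGL1 without 2 or 4, KIF21A and ADAMTS1 without 1 or 2, JMJD1C without 1, 2 or 3, and AKAP12 without 2 or 3.

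Among the genes lower at 18 months, HAPLN3, a link protein of hyaluronan matrix, was at 35.3 and 40.3 CPM at 6 months and 5.16 and 1.78 at 18 months, and fell by 4.73 ± 0.57 on the log2 scale (edgeR adjusted p = 0.0254). Among cells at 3% or more it fell by 3.98 (edgeR adjusted p = 0.0175). APOD, a lipocalin, was at 57.7 and 35.5 CPM, and 10.3 and 7.13, and fell by 3.41 ± 0.52 (edgeR adjusted p = 0.0320), or by 2.78 among cells at 3% or more (edgeR adjusted p = 0.0281). CHGA was at 779 and 444 CPM, and 358 and 174, and fell by 2.20 ± 0.53 (edgeR adjusted p = 0.0495), with -1.84 (edgeR adjusted p = 0.167) among cells at 3% or more. TIMP2 was at 21905 and 20418 CPM, and 8836 and 10440, and fell by 2.04 ± 0.49 (edgeR adjusted p = 0.0468), with -1.21 (edgeR adjusted p = 0.118) among cells at 3% or more. WNT6 fell by 1.87 ± 0.44, from 155 and 153 CPM to 103 and 60.6 (edgeR adjusted p = 0.0462), with -1.22 (edgeR adjusted p = 0.346) among cells at 3% or more. The rule for lower genes also named ERP27, SOD3, PLA2G7, EXOC3L2, PPIC, KDELR3, ECI1, APOE and DCTPP1, which fell by between 2.11 and 2.98, and of these 9 APOE passed among cells at 3% or more. By library totals SOD3, PLA2G7, PPIC, KDELR3, ECI1, DCTPP1, CHGA and WNT6 did not pass (edgeR adjusted p from 0.0506 to 0.121). HAPLN3, APOD and ERP27 passed whichever replicate was left out, and the other 8 of these 9 each lost the call without at least 1. CHGA and WNT6 did not pass when any replicate was left out, and TIMP2 passed only without replicate 4. APOE had 1655 and 2396 CPM in the stroma of 6 months, against 148 and 173 in the members.

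**Figure D4:**
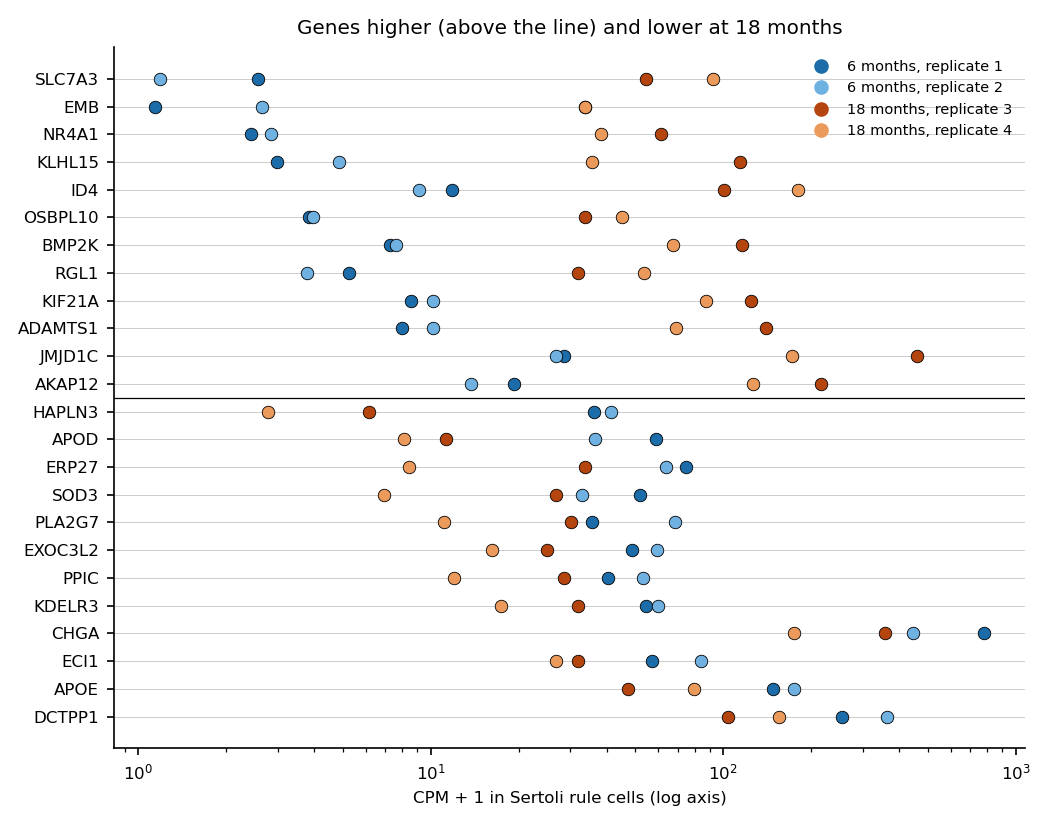
CPM + 1 (log axis) in Sertoli cells of each library for the 12 genes of largest change in each direction between 6 months (blue) and 18 months (orange). The ages do not overlap for any of the 24, since the rule for naming genes required it, and SLC7A3 lies at 1.56 and 0.184 against 53.3 and 91.2 CPM.

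The rule's own genes are given as values only. INHA was at 5955 and 10977 CPM at 6 months and 4590 and 6049 at 18 months, and FSHR at 35.8 and 50.6, and 65.3 and 46.1. SOX9, which also differed with mitochondrial share, was at 132 and 62.7 CPM, and 693 and 417, and CITED1 at 62.3 and 44.0, and 73.9 and 209. The ages overlapped for INHA and FSHR only. Other leading genes of the members did not pass: APOA1 was at 12594 and 11587 CPM, and 4763 and 6621 (edgeR adjusted p = 0.0525), CRYAB at 1476 and 1491, and 2175 and 5517, and AQP8 at 488 and 533, and 392 and 561 (edgeR adjusted p = 0.217).

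The lists gave few calls in this fit, where 2.59% of all genes were higher and 1.31% lower. Of the dissociation and stress genes, 2 of 16 were higher (NR4A1 and DUSP1) and 0 lower. Of the junction genes, 1 of 14 was higher: VCL, vinculin of adhesion plaques, at 4.41 and 4.60 CPM, and 63.6 and 34.2. Of the glutathione genes 2 of 23 were lower (MGST2 and SOD3), and of the retinoid genes 1 of 10, CYP26A1, which breaks down retinoic acid, from 4.98 and 15.1 CPM to 0 and 0.594. Of the cell cycle brakes 1 of 10 was higher, CDKN1A, the p21 inhibitor, from 0 and 0.920 to 41.3 and 5.94 CPM, and of the cell cycle genes 0 of 20 passed. The inhibin and FSH list had 1 of 18 higher, again NR4A1, and the sex determination regulators and the lactate and glucose supply had 0 of 12 and 0 of 10 calls. Among cells at 3% or more, CYP26A1 was at -4.63 (edgeR adjusted p = 0.0405), while VCL, DUSP1, MGST2 and SOD3 did not pass, and 0 of 5 cell cycle brakes did. CDKN1A did not pass without replicate 3 (edgeR adjusted p = 0.183), nor CYP26A1 without replicate 3 or 4, VCL and DUSP1 without replicate 1, 2 or 3, MGST2 without replicate 1, 2 or 4, and SOD3 without replicate 1 or 4.

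To set apart what a whole library shares, the change in Sertoli cells was compared with that in stroma cells of the same 4 libraries, as an interaction in edgeR with the library as a term. Of 9361 genes, 337 (3.6%) changed more upward in Sertoli cells and 390 (4.17%) more downward, and among cells at 3% mitochondrial UMIs or more, 47 and 188 of 7064 did. By library totals the split was 1069 upward and 131 downward. With 2 libraries per age, very small adjusted p-values in this fit rest on edgeR's estimate of the spread. The 727 calls became 188 when replicate 1 was left out, 205 for replicate 2 and 302 for replicate 4. On the upward side, SOX4, a transcription factor of progenitor cells, was at 8.67 and 15.5 CPM in the members and 129 and 118 in Sertoli cells of 18 months, while stroma was at 62.2 and 76.2, and 98.5 and 83.6, a difference of 2.37 ± 0.33 (edgeR adjusted p = 1.36e-10), or 1.14 (edgeR adjusted p = 0.0518) among cells at 3% or more. Of the dissociation and stress genes, 11 of 17 changed more upward and 0 more downward, against 3.6% and 4.17% of all genes. JUN was at 901 and 793 CPM in Sertoli cells of 6 months and 7149 and 3990 at 18 months, while stroma was at 5500 and 5379, and 9068 and 6992, a difference of 1.47 ± 0.46 (edgeR adjusted p = 0.0269). FOS was at 583 and 470 CPM, and 1741 and 2405, while stroma went from 4200 and 4390 to 2679 and 4029, a difference of 1.71 ± 0.42 (edgeR adjusted p = 0.00179). JUN did not pass when any replicate was left out, and FOS did not without replicate 1 or replicate 2. The called stress genes all lost the call without replicate 1, with differences from 0.97 (ZFP36) to 2.08 (FOS). Among cells at 3% or more, 0 of these 17 genes passed, and their median was 0.24 in place of 1.31.

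The downward side was led by APOD. In stroma it was at 77.0 and 64.2 CPM at 6 months and 515 and 355 at 18 months, and the difference between the classes was -5.70 ± 0.37 (edgeR adjusted p = 1.6e-49), or -5.04 among cells at 3% or more (edgeR adjusted p = 4e-06). Of the basement membrane genes, 7 of 19 changed more downward, COL4A3, COL4A4, COL4A5, COL4A6, LAMA2, LAMC3 and NID1, and 0 more upward, against 4.17% and 3.6% of all genes. In cells at 3% or more the count was again 7 of 19, but COL4A6 did not pass there (edgeR adjusted p = 0.101). In that run 5 of 6 stroma markers and 3 of 3 macrophage markers were also called downward, with medians of -2.88 and -6.79. Scrublet's ranking marked 25.2% and 26.0% of the 6-month members at 3% or more, so that run does not set other cell types aside. COL4A3 was at 23.2 and 17.5 CPM in Sertoli cells, and 105 and 30.0 at 18 months, while stroma went from 3.70 and 1.83 to 57.6 and 3.80, a difference of -2.24 ± 0.51 (edgeR adjusted p = 0.000508), which without replicate 3 was -0.54 (edgeR adjusted p = 0.849). APOD, LAMA2 and RBP4 passed whichever replicate was left out, and the other 6 basement membrane genes each lost the call without at least 1 replicate. LAMA2, a laminin chain, was at 8.81 and 6.26 CPM in the members against 224 and 150 in stroma, and at 1.72 and 1.49 against 325 and 196 at 18 months. Retinol-binding protein RBP4 was at 233 and 102 CPM, and 112 and 44.0, while stroma was at 298 and 150, and 348 and 268, a difference of -2.34 ± 0.32 (edgeR adjusted p = 3.93e-11). Stroma markers, some of which both rules used, summed to 50 and 33.5 CPM in the members and 44.7 and 14 at 18 months. Of the 6 stroma markers fitted, 5 were called downward, with a median of -1.76 over the list. COL3A1, PDGFRA and OGN, which neither rule used, were among those called. Whether RNA of stroma cells among the members had a part in the basement membrane calls was not tested. Macrophage markers had 4 of 4 and mural markers 3 of 7 called downward. The stroma of replicate 4 held 120 CPM of macrophage markers against 10.0 in replicate 3. Without replicate 4, the macrophage genes all lost the call (-7.25 to -1.07), as did ACTA2 (-0.50) and RGS5 (-2.28). TAGLN, the remaining mural call, turned upward without replicate 4 and lost the call without replicate 1 (-0.48).

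**Figure D5:**
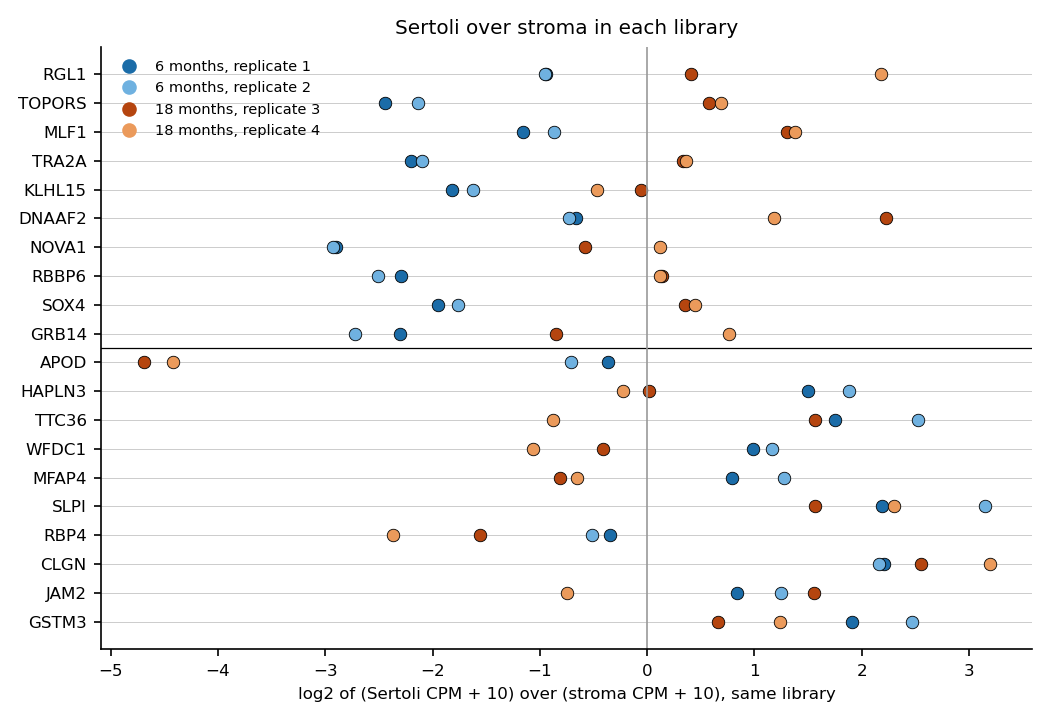
Log2 ratio of Sertoli to stroma CPM, with 10 CPM added to both, in each library of 6 months (blue) and 18 months (orange), for the 10 genes of largest difference in each direction. The ages lie apart for APOD, while for SLPI and JAM2 they overlap and for CLGN the ratio with 10 CPM added was higher at 18 months.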

How the data were processed

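Single-cell RNA was counted in 6 testis libraries. The deposited matrices hold raw UMI counts per gene and barcode. The authors processed reads with Cell Ranger (version 2.1.1 per the submitters' processing notes, 5.0.0 per the file headers). For the genome build and annotation the sources used here give no name. Of the identifiers 0 matched the RefSeq table, and gene symbols were taken from the deposited features, of which 15722 of 26961 had one. The features and barcodes files hold names, recorded here as other deposited text. Every barcode held at least 500 UMIs. The members, markers and 28 gene lists were chosen with earlier results of these data known.

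Counts were summed per library over the cells of each rule. The two-sided tests used edgeR 4.0.16 (quasi-likelihood, TMM, filterByExpr, adjusted p below 0.05 by Benjamini-Hochberg); DESeq2 1.42.0 was an alternative. The SE beside an edgeR fold change was derived as the absolute log2 fold change over the square root of the test's F statistic. It is approximate, above all for genes with few UMIs at 1 age. An exact test of 2 against 2 libraries cannot go under p = 0.333. On simulated counts, the age test recovered 0.374% of 2-fold and 27.3% of 4-fold changes with 10.5% false calls, over 7653 genes. The interaction recovered 5.17% and 48.2% with 2.56% false, over 9160. These counts were drawn from edgeR's own fit of the same libraries, so the false shares do not measure errors from variation outside that model. Named genes were the 12 (age) or 10 (interaction) of largest change per direction with a symbol, adjusted p below 0.05 and at least 30 CPM in both libraries of the higher age, without overlap of the ages in the age fit; the 25 of highest CPM; the 20 of highest ratio to stroma; the 10 per direction of the mitochondrial split; and list members. Thinning drew 1000 UMIs per cell and left out 59 and 56 shallower members (208 and 70 stroma cells). Doublets stayed in; removal by Scrublet score (Scanpy 1.11.5, the highest 0.8% per 1000 barcodes) took 171 and 90 members. Strand use in counting is not stated, so overlapping genes cannot be told apart. The 4-year and cattle-yak libraries entered no test. A result of the gene lists is not reported here.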

Additional observations from a re-analysis of the deposited data

Results flagged for a closer look

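In the test of whether the change from 6 to 18 months differed between Sertoli and stroma cells of the same libraries (edgeR's quasi-likelihood interaction, Benjamini-Hochberg adjusted p), 20 named genes stood out because the difference itself passed. Values are log2 and positive where Sertoli cells changed more upward. Upward were RGL1 at 3.11, TOPORS at 2.76, MLF1 at 2.70, TRA2A at 2.68, KLHL15 at 2.62, DNAAF2 at 2.47, NOVA1 at 2.42, RBBP6 at 2.40, SOX4 at 2.37 and GRB14 at 2.36. TOPORS, a ubiquitin and SUMO ligase, was at 25.2 and 20.6 CPM in Sertoli cells of 6 months and 225 and 156 at 18 months, while stroma was at 181 and 125, and 148 and 93.1. NOVA1, a splicing factor, was at 29.4 and 30 CPM, and 115 and 251, while stroma was at 285 and 294, and 177 and 230. In both genes Sertoli cells of 6 months lay below stroma by several-fold. Among cells at 3% mitochondrial UMIs or more, TOPORS was at 1.30 (edgeR adjusted p = 0.0107) and NOVA1 at 1.21 (edgeR adjusted p = 0.0324), and TRA2A passed too, while RGL1, MLF1, KLHL15, DNAAF2, RBBP6, SOX4 and GRB14 did not pass (edgeR adjusted p from 0.0516 to 0.183).

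Downward were APOD at -5.70, HAPLN3 at -3.97, TTC36 at -3.31, WFDC1 at -2.70, MFAP4 at -2.63, SLPI at -2.53, RBP4 at -2.34, CLGN at -2.30, JAM2 at -2.03 and GSTM3 at -1.89. WFDC1, a secreted protein with a protease inhibitor fold, was at 106 and 165 CPM, and 79.1 and 53.8, while stroma was at 48.8 and 67.9, and 109 and 124. CLGN, a chaperone of the endoplasmic reticulum, was at 42.5 and 36.8 CPM in Sertoli cells and 127 and 116 at 18 months, and stroma was at 1.35 and 0.459, and 13.4 and 3.80. Its counts in stroma were low, and with 10 CPM added the ratio to stroma went the opposite way. JAM2, a junctional adhesion molecule, rested on the stroma of replicate 4, at 118 CPM against 15 in replicate 3. CLGN lost the call without replicate 1, 2 or 3 (-2.88, -2.03 and -1.06), as did GSTM3 (-1.995, -1.76 and -1.58). TTC36 lost it without replicate 4 (-1.55) and SLPI without replicate 3 (-1.55). DESeq2 did not call TTC36 (DESeq2 adjusted p = 0.241), CLGN (0.166) or JAM2 (0.279), and it called the other downward genes. By library totals CLGN did not pass (edgeR adjusted p = 0.111). When only cells at 3% mitochondrial UMIs or more were used, APOD, WFDC1, MFAP4 and RBP4 passed, while HAPLN3, TTC36, SLPI (-0.73), CLGN, JAM2 and GSTM3 (-0.86) did not (edgeR adjusted p from 0.107 to 0.558).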

How the results depend on the processing

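Of 37 named or listed genes called with age, 25 were called by library totals and 35 by DESeq2, and of 79 such genes called against stroma, 56 and 40. None of the 37 changed direction in any alternative run. The 319 age calls became 560 with DESeq2, 1995 by library totals, 927 with no low-count filter, 109 with another marker required, 75 among cells at 3% mitochondrial UMIs or more (chosen after seeing the data), and 112 to 499 without 1 replicate. The 727 calls against stroma became 184, 1200, 442 with another marker, 334 at up to 10% mitochondrial UMIs, 350 between 1500 and 6000 UMIs, 235 at 3% or more, and 188 to 812 without 1 replicate. KIF23 turned to -1.69 at up to 10% mitochondrial UMIs. JAM2 ranged from -2.98 to 0.016 and TAGLN from -2.24 to 0.12, both positive without replicate 4.

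The shares of 29.3% and 33.0% were 27.2% and 30.9% under stricter markers, 10.4% and 9.28% with another marker, and 33.0% and 38.4% at up to 10% mitochondrial UMIs. The 46 genes 4-fold over stroma were 182 with 1 CPM added and 0 against all other barcodes. The 710 genes higher at 3% or more were 3198 with 1 CPM added and 1107 to 1393 with 1 library left out, when only 1 has to pass. The 0 lower were 2 with another marker, 1 between 1500 and 6000 UMIs, 36 with 1 CPM added, and 0 to 9 with 1 library left out. Cycling shares were 1.58% and 4.88% for at least 1 gene, 0.366% in replicate 1 with another marker, and 3.43% in replicate 2 without thinning. The cause of these changes was not tested. No paired analysis was possible because the ages share no replicate number. Depth limits the lists: genes under 5 CPM were left out of the counts of ratios, and 95 cells stand for replicate 3.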
